A study of Mus musculus with 35 samples.

Results

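The effect of carmofur on the transcripts of colon tumour organoids is described here from 9 libraries with neighbouring library numbers, 6 from carmofur-treated cultures and 3 from controls. The carmofur libraries carry the numbers 201125 to 201130 in the labels and the control libraries the numbers 201119 to 201121; they were chosen by these numbers alone, as 9 of the 35 libraries of the series. The organoids are mouse colon tumour cultures of genotype AKP, grown in vitro, and the series asks how fatty acids and ceramides act on their transcripts. Carmofur libraries 7 to 12 were labelled Carmofur and control libraries 4 to 6 were labelled Control; both groups share the AKP genotype, the tissue label Colon and the cell type label tumor. The labels give no dose, no duration, no vehicle and no mark of what separates carmofur libraries 7 to 9 (numbers 201125 to 201127) from 10 to 12 (numbers 201128 to 201130), so both enter as 1 group and are also shown apart. They do not say how many organoid lines or clones were used, nor that the libraries came from separate cultures, so p-values reflect only how far these libraries vary, and that variation may be technical.

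Organoids are self-organised epithelial cultures that grow in a gel matrix without stroma or immune cells. Carmofur inhibits acid ceramidase, the lysosomal enzyme that splits ceramide into sphingosine and a fatty acid, and it is also a prodrug of a fluorinated pyrimidine that blocks thymidylate synthase. Cells with an overloaded endoplasmic reticulum (ER) or too few amino acids activate the unfolded protein response and the integrated stress response, which raise chaperones, amino acid synthesis enzymes and tRNA synthetases. The colon epithelium can also enter a revival or fetal-like state after injury, marked by annexins and Ly6 proteins, which stands apart from the Lgr5-positive crypt-base stem cell.

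Total gene counts were 3127275 to 10609563 in the 6 carmofur libraries and 3285258 to 4747287 in the 3 control libraries, so 3 counts, the limit set by a count of 0, correspond to 0.291 to 0.96 CPM with carmofur and 0.642 to 0.903 CPM in controls. CPM are counts scaled to library size after TMM normalization, and intervals and floors cover counting error only because no molecular identifiers are stated. Carmofur and control libraries separated on the first principal component, with carmofur libraries 7 to 12 between -103 and -10.2 and control libraries 4 to 6 between 68.4 and 83.9. Carmofur library 8 stood apart on the second component (139.6) and carmofur library 10 on both (-103 and -79.3); counts without these libraries are given below. Mitochondrial transcripts held 5.22% to 5.58% of counts in carmofur libraries 7 to 9, 6.85% to 7.15% in carmofur libraries 10 to 12, and 4.64% to 5.11% in controls. All 13 epithelial markers were detected, summing to 4957 to 6159 CPM with carmofur and 4364 to 4815 CPM in controls. Of the other cell types, 6 of 10 mesenchymal markers, 7 of 13 immune markers (Ptprc, Cd3e, Adgre1, Csf1r, Lyz2, Tyrobp and Fcer1g) and 6 of 10 endothelial and blood markers had no count in any of the 9 libraries. The mesenchymal sum was at most 4.38 CPM with carmofur and 6.73 CPM in controls. The immune sum, mostly Cd68 and S100a8, was 64.0 to 186 CPM with carmofur and 34.6 to 92.6 CPM in controls, and its part in the results was not tested.

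**Figure D1:**
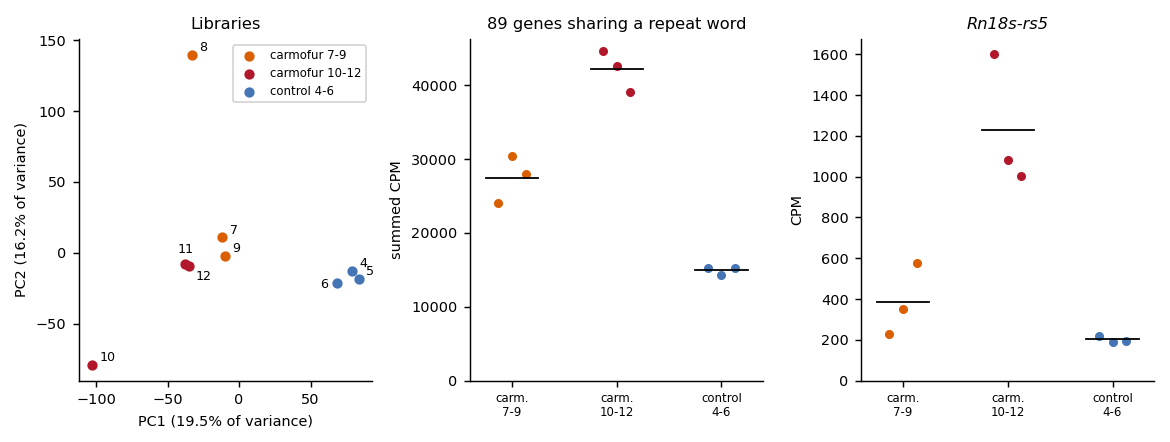
Left, the 9 libraries on the first and second principal components of log2 CPM. Middle and right, the summed CPM of the 89 genes that rose and hold a shared repeat word, and the CPM of the ribosomal RNA gene Rn18s-rs5, in carmofur libraries 7 to 9, carmofur libraries 10 to 12 and control libraries 4 to 6; points are libraries and bars are means. Carmofur libraries 10 to 12 lie highest in both right panels, at 39090 to 44680 CPM and 1003 to 1603 CPM. The 89 genes were called higher in these same libraries, so a sum above the controls follows from the choice.

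With carmofur, the ER chaperone Hspa5, the asparagine synthetase Asns, prothymosin alpha (Ptma) and many ribosomal protein genes fell, while the secreted proteins Enpp2, Spp1 and Apoc2, the keratins Krt13 and Krt20, and several annexin and S100 genes rose. A gene is called changed at an adjusted p under 0.05. Of 10781 genes tested, 512 were called (4.75%), 351 higher (3.26%) and 161 lower (1.49%). The median log2 fold change over all tested genes was 0.06. All 6 carmofur libraries lay above all 3 controls in 689 genes (6.39%) and below them in 456 genes (4.23%). These shares, and those of the calls, are the background for the counts of each gene list below. The number of calls depended on single libraries: it was 248 without control library 4, 266 without control library 5 and 311 without carmofur library 11, and without the set of carmofur libraries 10 to 12 it was 96. Without carmofur libraries 8 and 10 it was 392.

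**Figure D2:**
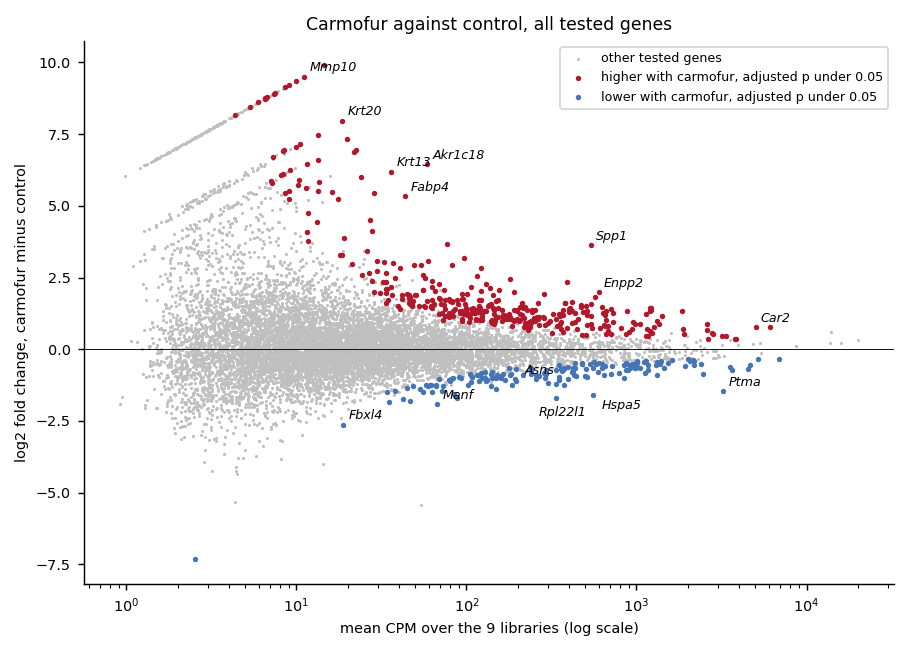
Log2 fold change, carmofur minus control, against mean CPM over the 9 libraries (log scale), 1 point per tested gene. Red points are the 351 genes called higher and blue points the 161 called lower; the uppermost diagonal of points at the left holds genes with no count in the controls, whose fitted fold changes depend on the prior count.

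Genes of protein folding in the ER were among those that fell with carmofur. Of 39 listed genes 38 could be tested, and 7 fell (Hspa5, Ero1a, Pdia6, Hsp90b1, Manf, Xbp1 and Sec61b), with none called higher; the median log2 fold change was -0.64, against 0.06 over all tested genes. The 7 falls are 18.4% of the list, against 1.49% of all tested genes. In 14 of the 38 all carmofur libraries lay below all controls, against 4.23% of all tested genes. Hspa5, the main Hsp70 chaperone of the ER and a sensor of unfolded proteins (ENSMUSG00000026864, mm10 chromosome 2, 34771970 to 34777547), had 423, 310.4 and 387 CPM in carmofur libraries 7 to 9, 332, 250.3 and 287 CPM in carmofur libraries 10 to 12, and 862, 986 and 1149 CPM in control libraries 4 to 6. Every carmofur library lay below every control, with no overlap (log2 fold change -1.59 ± 0.16 (SE), adjusted p = 1.94e-05). In bulk RNA, fewer cells that express a gene and less of its RNA per cell cannot be told apart.

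Sequences upstream of Hspa5, Hsp90b1 and Pdia6 are shown because these called genes hold the ER stress element. That element is the site through which the unfolded protein response acts on chaperone genes. Ero1a, Manf, Xbp1 and Sec61b, the other called genes, are not among the matches. The RefSeq promoter windows (GRCm38.p6, 250 bases before to 50 bases after the start) were searched on both strands for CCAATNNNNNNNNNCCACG. It stood in 8 of the 32 matched promoters of the ER list (25%), in 14 of 8295 promoters of tested genes (0.169%) and in 35 of 27025 in all (0.13%). The list was chosen by known function, so its share describes the list and not an effect of carmofur. Capitals mark the match, which reads on the opposite strand at the second place in Hsp90b1.
Hspa5 promoter, chr2:34771840-34772139 plus strand: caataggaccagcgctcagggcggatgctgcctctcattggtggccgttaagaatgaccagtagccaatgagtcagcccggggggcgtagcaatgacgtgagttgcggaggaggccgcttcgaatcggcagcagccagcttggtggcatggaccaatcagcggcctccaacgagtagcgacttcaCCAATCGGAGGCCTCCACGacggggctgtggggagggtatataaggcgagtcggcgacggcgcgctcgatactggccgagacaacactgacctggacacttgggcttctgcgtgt
Hsp90b1 promoter, chr10:86705395-86705694 minus strand: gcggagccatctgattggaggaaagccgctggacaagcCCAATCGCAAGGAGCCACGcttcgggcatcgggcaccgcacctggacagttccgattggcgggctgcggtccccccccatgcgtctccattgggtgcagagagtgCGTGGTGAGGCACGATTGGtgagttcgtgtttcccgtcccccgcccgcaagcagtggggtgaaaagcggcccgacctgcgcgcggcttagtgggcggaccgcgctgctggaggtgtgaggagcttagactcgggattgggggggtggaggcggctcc
Pdia6 promoter, chr12:17266339-17266638 plus strand: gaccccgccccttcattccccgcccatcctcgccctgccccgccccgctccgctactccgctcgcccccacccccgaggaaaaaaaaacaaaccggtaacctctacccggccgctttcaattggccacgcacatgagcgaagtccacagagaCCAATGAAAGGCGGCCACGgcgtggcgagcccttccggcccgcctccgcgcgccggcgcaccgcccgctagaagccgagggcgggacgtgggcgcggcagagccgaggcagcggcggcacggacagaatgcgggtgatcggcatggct
The listed genes with a match had a median log2 fold change of -0.70, and those without one -0.52. Besides the genes shown, the matches were Calr (-0.45), Canx (-0.30), Creld2 (-0.96), Dnajc3 (-0.62) and Syvn1 (2.1), none of them called. A match is a description of letters, and binding was not measured.

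The other 6 genes that fell differ in role, from chaperones to a transcription factor. Hsp90b1, the ER member of the Hsp90 family, had 647, 678 and 653 CPM in carmofur libraries 7 to 9, 476, 450.1 and 426 CPM in carmofur libraries 10 to 12, and 969.9, 992 and 1075 CPM in control libraries 4 to 6, which placed libraries 10 to 12 below 7 to 9 and both below the controls (log2 fold change -0.87 ± 0.15 (SE), adjusted p = 0.00276). Pdia6, a disulphide isomerase, had a median of 474 CPM (412 to 567) with carmofur, against 799, 747 and 928 CPM in the controls (log2 fold change -0.78 ± 0.13 (SE), adjusted p = 0.00186). Ero1a, the oxidase that recharges these isomerases, had a median of 402 CPM (283 to 486) with carmofur, against 725, 704 and 846 CPM in the controls (log2 fold change -0.98 ± 0.16 (SE), adjusted p = 0.00164). In each of these no carmofur library reached a control. Manf, a secreted factor induced by ER stress, had a median of 28.8 CPM (14.6 to 63.8) with carmofur, against 158, 85.5 and 152 CPM in the controls (-1.93, adjusted p = 0.00652), and its call was lost without control library 4 (adjusted p = 0.0537). Xbp1, a transcription factor of the unfolded protein response, had a median of 46.3 CPM (18.9 to 67.3) with carmofur, against 103, 136 and 135 CPM in the controls (-1.47, adjusted p = 0.0126), and was not called without control library 5 (adjusted p = 0.0689) or control library 6 (adjusted p = 0.0511). Sec61b, a subunit of the translocon and named after its values were seen, fell (-1.0, adjusted p = 0.0171) and was not called without control library 4 (adjusted p = 0.0881) or control library 5 (adjusted p = 0.164).

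Targets of the integrated stress response also fell where they were called. Of 40 listed genes 34 were tested and 6 fell (Asns, Ndrg1, Psat1, Pck2, Psph and Mthfd2). These are 17.6%, against 1.49% of all tested genes. None rose, and the median was -1.0. In 13 all carmofur libraries lay below all controls, against 4.23% of all tested genes. Asns, which makes asparagine (ENSMUSG00000029752, mm10 chromosome 6, 7675169 to 7693254), had 384, 276 and 322 CPM in carmofur libraries 7 to 9, 175, 194 and 194 CPM in carmofur libraries 10 to 12, and 537, 621 and 671 CPM in control libraries 4 to 6, in 3 separate ranges with libraries 10 to 12 lowest (log2 fold change -1.24 ± 0.21 (SE), adjusted p = 0.00227). Psat1, an enzyme of serine synthesis, had a median of 119 CPM (90.5 to 178) with carmofur, against 247, 313 and 218 CPM in the controls (-1.06, adjusted p = 0.00941), and was not called without control library 5 (adjusted p = 0.0905). Ndrg1, a stress-regulated protein that also stands on the hypoxia list, had a median of 98 CPM (66.4 to 122) with carmofur, against 222, 254 and 214 CPM in the controls (-1.28, adjusted p = 0.00337). Pck2, a mitochondrial enzyme of phosphoenolpyruvate synthesis, fell (-1.25, adjusted p = 0.0194) and was not called without control library 4 (adjusted p = 0.108) or control library 5 (adjusted p = 0.0768). Psph, the last enzyme of serine synthesis, and Mthfd2, a mitochondrial folate enzyme, were named after their values were seen; they passed at adjusted p = 0.0308 and 0.0491, and both calls were lost without control library 5 (adjusted p = 0.16 for each). Without control library 5 the list held 2 calls, and without carmofur libraries 10 to 12 it held 1.

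The amino acid response element TGATGNAA, bound by C/EBP and ATF proteins, was read in 10 of 28 matched promoters of this list (35.7%), in 5 of 13 of the tRNA synthetases (38.5%) and in 182 of 8295 of tested genes (2.19%). Both lists were chosen by known function, so their shares describe the lists and not an effect of carmofur. The Asns window is printed because its match lies just upstream of the start and the gene was called.
Asns promoter, chr6:7693160-7693459 minus strand: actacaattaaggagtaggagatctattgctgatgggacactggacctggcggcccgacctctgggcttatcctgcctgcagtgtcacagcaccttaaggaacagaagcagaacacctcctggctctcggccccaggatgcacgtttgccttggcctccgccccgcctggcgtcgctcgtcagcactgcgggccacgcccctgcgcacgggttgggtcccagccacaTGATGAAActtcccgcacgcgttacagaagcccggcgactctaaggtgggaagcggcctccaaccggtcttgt
The listed genes with a match had a median log2 fold change of -1.03, and those without one -1.0.

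Cytosolic tRNA synthetases, which load amino acids onto tRNAs, were lower in 19 of 20 genes tested, with 5 called (Tars, Eprs, Dars, Nars and Gars), none higher and a median of -0.59. Tars, for threonine, had a median of 40.7 CPM (36.1 to 49.7) with carmofur, against 121, 112 and 69.9 CPM in the controls, and the groups did not overlap (log2 fold change -1.27 ± 0.29 (SE), adjusted p = 0.016). None of the 5 calls was left without control library 4, without control library 5, or without carmofur libraries 10 to 12; the adjusted p of Tars was 0.133 without control library 4 and 0.0983 without control library 5.

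Among the genes called lower, cytosolic ribosomal proteins were numerous. All 81 were tested, 30 fell (37.0%, against 1.49% of all tested genes) and none rose. A negative log2 fold change was seen in 78 of the 81, against 5059 of 10781 tested genes. In 38 all carmofur libraries lay below all controls, against 4.23% of all tested genes. The median was -0.35. Rpl7a, of the large subunit, had a median of 640.2 CPM (496 to 729) with carmofur, against 1546, 1176 and 1081 CPM in the controls (log2 fold change -1.0 ± 0.14 (SE), adjusted p = 0.000344). Rpl18, also of the large subunit, had a median of 299 CPM (259 to 324) with carmofur, against 708, 615 and 492 CPM in the controls (log2 fold change -1.04 ± 0.14 (SE), adjusted p = 0.000381). Rps18, of the small subunit, had a median of 4118 CPM (3438 to 4486) with carmofur, against 5918, 5416 and 6366 CPM in the controls (log2 fold change -0.54 ± 0.09 (SE), adjusted p = 0.00227). None of these groups overlapped. Rpl3, of the large subunit, fell to a median of 2988 CPM (2245 to 3607) with carmofur, against 4663, 4630 and 5515 CPM in the controls (-0.72, adjusted p = 0.00342). Rpl22l1, a paralogue of Rpl22, showed the largest fall of the list, at 329, 209.9 and 243 CPM in carmofur libraries 7 to 9, 108, 127 and 136 CPM in carmofur libraries 10 to 12, and 597, 527 and 765 CPM in control libraries 4 to 6 (log2 fold change -1.71 ± 0.27 (SE), adjusted p = 0.00126). Ribosomal protein genes have many processed copies in the genome, and reads may be split among them, so single members are uncertain. The count of 30 was 11 without control library 4, 24 without carmofur libraries 8 and 10, and 5 without carmofur libraries 10 to 12.

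**Figure D3:**
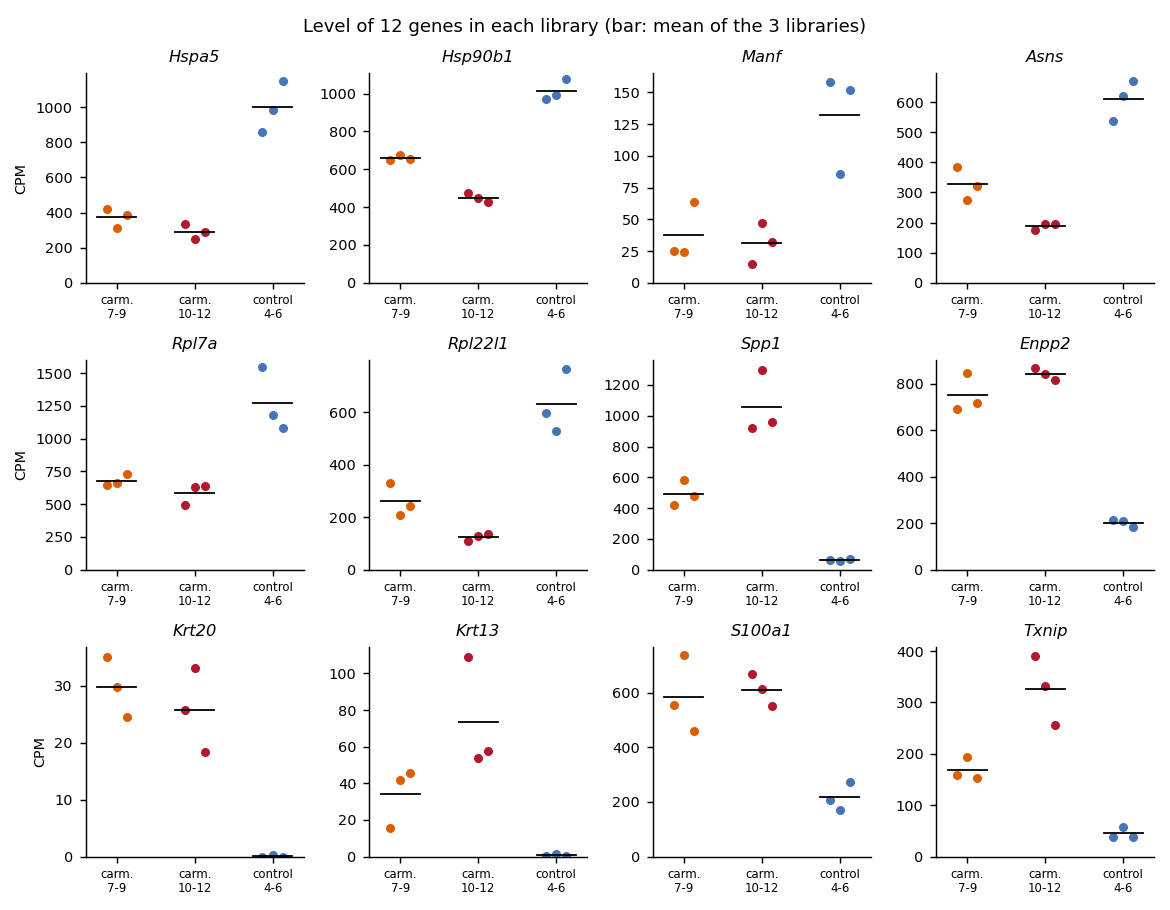
CPM of 12 genes in carmofur libraries 7 to 9, carmofur libraries 10 to 12 and control libraries 4 to 6 (points are libraries, bars are the means of 3 libraries, each axis starts at 0). The first 6 genes were lower and the last 6 higher with carmofur, and no carmofur library lies within the range of the controls in any of the 12.

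Other parts of the translation and protein quality machinery changed in smaller numbers. Of 40 ribosome biogenesis genes 3 fell (Nhp2, Npm1 and Ncl, 7.5% against 1.49% of all tested genes) and none rose, with a median of -0.50. Nhp2 was the 1 call left without control library 5, carmofur library 11 or carmofur library 12. Nhp2, a protein of the pseudouridylation complexes, had a median of 496 CPM (382 to 638) with carmofur, against 1066, 1065 and 674 CPM in the controls (-0.90, adjusted p = 0.00443). Among 36 translation factors Eif3h, Eif3e and Eef1d fell and Eif2s2 rose, and none of the 4 was called without control library 5 (adjusted p = 0.0712 for Eif3h, 0.142 for Eif3e, 0.132 for Eef1d and 0.0983 for Eif2s2). The mitochondrial chaperonins Hspd1 and Hspe1, which fold imported proteins together, both fell. Hspd1 had a median of 610.5 CPM (553 to 765) with carmofur, against 1014, 1085 and 1238 CPM in the controls. Hspe1 had a median of 272 CPM (201 to 332) with carmofur, against 559.9, 475 and 517 CPM in the controls. The log2 fold change was -0.84, adjusted p = 0.000717 for Hspd1 and -0.97, adjusted p = 0.00183 for Hspe1, without overlap of the groups. Hsp90ab1 fell (-0.44, adjusted p = 0.0427) and the small chaperone Cryab rose (2.50, adjusted p = 0.0179), the other calls among 25 heat shock genes. Hsp90ab1 was not called without carmofur library 7, 8 or 11 or control library 4, 5 or 6 (adjusted p from 0.0671 to 0.191). Cryab was not called without carmofur library 11 or control library 4 or 5 (adjusted p from 0.0595 to 0.102). Psmc3, Psma2 and Psmd4 fell among 35 proteasome genes, and only the call of Psmc3 (log2 fold change -0.80, adjusted p = 0.00902) passed whichever library was left out.

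Few genes of the mitochondria were called over the 9 libraries. Of 76 mitochondrial ribosomal protein genes 2 fell (Mrps28 and Mrpl17, 2.63%) and 3 rose (Mrps26, Mrpl45 and Mrpl33, 3.95%), shares near those over all tested genes (1.49% and 3.26%), and the median was -0.36. Mrpl17 was not called without carmofur library 11 or 12 or control library 4 (adjusted p from 0.0618 to 0.32), Mrpl45 not without control library 4 or 6 (adjusted p from 0.0625 to 0.123). Mrpl33 was not called without carmofur library 7, 8, 10, 11 or 12 or control library 4 or 5 (adjusted p from 0.0541 to 0.217). Without control library 4 the list held 2 calls. Mrps28 had a median of 56.6 CPM (19.1 to 72.1) with carmofur, against 138, 146 and 172 CPM in the controls (-1.57, adjusted p = 0.0086). Mrps26 had a median of 2290 CPM (1580 to 3087) with carmofur, against 951, 893 and 949 CPM in the controls (1.32, adjusted p = 0.000381). It holds the repeat word described below and is uncertain. Of 59 tested nuclear genes of the respiratory chain 5 fell and none rose (Ndufb7, Cox7c, Atp5g2 and Ndufs7 by the naming rule, and Cycs, named after its values were seen). Of these Ndufb7, of complex I, had the lowest p (log2 fold change -1.0, adjusted p = 0.0107), and none of the 5 was called without control library 4 except Atp5g2, which was not called without control library 5 (adjusted p = 0.186). The 13 mRNAs of the mitochondrial genome had a median of 0.45, with 12 above 0, against 5722 of 10781 tested genes. Of the 13 mRNAs mt-Nd1 was called (0.54, adjusted p = 0.0135), but not without control library 4 (adjusted p = 0.0706) or control library 5 (adjusted p = 0.103). DESeq2 called 4 of the 13 and limma-voom 3. With the carmofur sets apart, 7 were called higher in libraries 10 to 12 and none in libraries 7 to 9.

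The lowest p-values of the comparison belonged to single genes, named after their values were seen. Enpp2, the secreted enzyme autotaxin that makes lysophosphatidic acid (ENSMUSG00000022425, mm10 chromosome 15, 54838901 to 54952892), had a median of 831 CPM (692 to 868) with carmofur, against 212, 208 and 183 CPM in the controls (log2 fold change 1.99 ± 0.14 (SE), adjusted p = 5.44e-07). Ptma, prothymosin alpha, a small acidic nuclear protein, had a median of 1974 CPM (1728 to 2461) with carmofur, against 5787, 6025 and 5075 CPM in the controls (log2 fold change -1.47 ± 0.11 (SE), adjusted p = 8.02e-07). Apoc2, the cofactor of lipoprotein lipase, had a median of 507 CPM (463 to 714) with carmofur, against 86.6, 94.5 and 133 CPM in the controls (log2 fold change 2.36 ± 0.20 (SE), adjusted p = 3.27e-06). In none of these did the groups overlap. Pttg1, securin, which holds sister chromatids together until anaphase, had a median of 816 CPM (741 to 919) with carmofur, against 283, 328 and 368 CPM in the controls (1.33, adjusted p = 1.94e-05).

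Further genes named after their values were seen also rose. Akr1c18, a steroid dehydrogenase that breaks down progesterone in mice, had 50.6, 88.3 and 42.7 CPM in carmofur libraries 7 to 9, 128, 97.6 and 119 CPM in carmofur libraries 10 to 12, and 0.538, 2.41 and 0.214 CPM in control libraries 4 to 6 (log2 fold change 6.45 ± 0.68 (SE), adjusted p = 5.16e-05). Fabp4, a fatty acid carrier known from adipocytes, had 78.9, 36.2 and 31.2 CPM in carmofur libraries 7 to 9, 95.5, 70.1 and 77.5 CPM in carmofur libraries 10 to 12, and 0.538, 3.01 and 1.28 CPM in control libraries 4 to 6 (log2 fold change 5.34 ± 0.64 (SE), adjusted p = 0.000166). Every carmofur library of both genes lay far above the highest control, and the controls held few counts. Cd55, which protects cells from complement, had a median of 107 CPM (81.7 to 166) with carmofur, against 15.3, 10.8 and 18.8 CPM in the controls (2.93, adjusted p = 0.00012). Txnip, an inhibitor of thioredoxin and of glucose uptake, had a median of 225 CPM (153 to 390.3) with carmofur, against 38.2, 58.1 and 38.7 CPM in the controls (2.46, adjusted p = 0.000314). The actin regulators Tmsb4x and Pls3 rose too (1.82, adjusted p = 0.000166; 1.3, adjusted p = 0.000136). For all 6 genes the carmofur and control libraries did not overlap, and the calls held under every alternative tried.

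Of the 12 rises named for their fitted size, 10 were of genes with no count in any control: Mmp10, Crim1, Trim40, Sema3e, Klf2, Cxcl2, Tmprss11e, Gpx8, Csta1 and Clcf1. Against the floor of 3 counts over the 3 controls together (0.256 CPM), their pooled carmofur levels were at least 29.1-fold (Clcf1, a cytokine of the interleukin 6 family) to at least 62.8-fold higher (Mmp10, a matrix metalloprotease). Mmp10 had 0, 14.4 and 0.137 CPM in carmofur libraries 7 to 9, 45, 23.4 and 17.4 CPM in carmofur libraries 10 to 12, and 0, 0 and 0 CPM in control libraries 4 to 6, so that 2 of the carmofur libraries lay at or near 0. Cxcl2, a chemokine that attracts neutrophils, was at least 40.4-fold higher with a median of 12.2 CPM (0.265 to 16) with carmofur, against 0, 0 and 0 CPM in the controls. These 10 calls rest on each control: none passed without any 1 of the 3 (adjusted p 0.0621 to 0.157), and each was lost without at least 1 of the carmofur libraries. Krt20, the keratin of mature surface epithelium, had 1 control count; it had 35.1, 29.8 and 24.5 CPM in carmofur libraries 7 to 9, 25.7, 33.2 and 18.4 CPM in carmofur libraries 10 to 12, and 0, 0.301 and 0 CPM in control libraries 4 to 6, a pooled ratio of 321 (95% counting interval 57.5 to 12700) and a call that held without each library (7.97, adjusted p = 0.00037). Bcl2l15, a relative of the apoptosis regulator Bcl2, completes the 12 with 2 control counts; it had 44.9, 42.6 and 4.52 CPM in carmofur libraries 7 to 9, 32, 32.3 and 22.1 CPM in carmofur libraries 10 to 12, and 0, 0 and 0.428 CPM in control libraries 4 to 6, a pooled ratio of 158 (95% counting interval 43.7 to 1310) and a call that held without each library (7.32, adjusted p = 0.00142). Bcl2l15 was not called against all 12 controls of the carmofur experiment (adjusted p = 0.146).

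Among the 12 largest falls by the naming rule were Hspa5, Rpl22l1, Manf, Xbp1, Gusb and Mrps28, described in their groups. Fbxl4, which restrains the removal of mitochondria, fell to a median of 7.51 CPM (0.96 to 10.3) with carmofur, against 34.7, 47.3 and 46.4 CPM in the controls (log2 fold change -2.63 ± 0.64 (SE), adjusted p = 0.0227), and was not called without control library 4 (adjusted p = 0.0742), control library 5 (adjusted p = 0.124), control library 6 (adjusted p = 0.0938) or carmofur library 11 (adjusted p = 0.0531). Dnajc19, a co-chaperone of the mitochondrial inner membrane, fell to a median of 51.7 CPM (34.4 to 64.1) with carmofur, against 218, 164 and 107 CPM in the controls (log2 fold change -1.69 ± 0.28 (SE), adjusted p = 0.00181), with no overlap and no call lost to a single library. Pfdn6, a prefoldin subunit, Chchd3, of the mitochondrial contact site complex, Tmem205 and Atp6v1h, a subunit of the lysosomal proton pump, had log2 fold changes of -1.81, -1.48, -1.49 and -1.51. Each of these 4 lost its call without control library 4 (adjusted p = 0.197, 0.107, 0.218 and 0.0853) and without control library 5 (0.239, 0.189, 0.0991 and 0.289).

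Some markers of the revival or fetal-like state rose with carmofur. Of 32 listed genes 31 were tested, 10 rose (Spp1, Il1rn, Anxa5, Anxa8, Ly6d, Il33, Anxa2, Anxa1, Msln and Ly6c1), none fell, and the median was 0.66. The 10 rises are 32.3% of the tested members, against 3.26% of all tested genes. The summed level of the list was 12658 to 18888 CPM with carmofur, against 9495 to 10225 CPM in controls, with libraries 10 to 12 highest. Spp1, the secreted matrix protein osteopontin (ENSMUSG00000029304, mm10 chromosome 5, 104435118 to 104441050), had 422, 579 and 478 CPM in carmofur libraries 7 to 9, 918, 1299 and 957 CPM in carmofur libraries 10 to 12, and 65.4, 55.7 and 67.8 CPM in control libraries 4 to 6 (log2 fold change 3.62 ± 0.33 (SE), adjusted p = 1.03e-05). The control range lay far below both carmofur sets, and libraries 10 to 12 lay above 7 to 9. Spp1 was not called by limma-voom (adjusted p = 0.0797). Il1rn, the interleukin 1 receptor antagonist, had a median of 509 CPM (349.7 to 598) with carmofur, against 146, 191 and 151 CPM in the controls (log2 fold change 1.59 ± 0.20 (SE), adjusted p = 0.000233). Anxa8, an annexin of squamous and regenerating epithelium, had a median of 88.4 CPM (69.5 to 165) with carmofur, against 29.6, 28.6 and 12.4 CPM in the controls (2.07, adjusted p = 0.00417). Anxa1, fixed by name, had a median of 3401 CPM (3011 to 4076) with carmofur, against 2159, 2445 and 2968 CPM in the controls (0.47, adjusted p = 0.0332) and was not called without carmofur library 10, 11 or 12 or control library 4 or 5 (adjusted p from 0.0669 to 0.216). Clu, the gene that defines revival stem cells in mouse intestine, had a median of 105 CPM (20.8 to 154) with carmofur, against 37.4, 28.9 and 1.71 CPM in the controls, and the groups overlapped (2.05, adjusted p = 0.107). Ly6a, the fetal marker Sca-1, did not pass by edgeR (0.55, adjusted p = 0.0503), but passed with DESeq2 (adjusted p = 0.00803), with limma-voom (0.0245), and in edgeR with RLE scaling (0.0495) or no count filter (0.0213). The count of 10 was 5 without control library 4, 7 without carmofur libraries 8 and 10, and 2 without carmofur libraries 10 to 12.

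The annexin and S100 calcium-binding families, which share 4 of these genes, had 11 of 21 tested members called higher, none lower, and a median of 0.77. The 11 are 52.4%, against 3.26% of all tested genes. S100a1 had a median of 584 CPM (459.5 to 739.8) with carmofur, against 208, 172 and 272 CPM in the controls (log2 fold change 1.46 ± 0.18 (SE), adjusted p = 0.000233). S100a10, the partner of annexin A2, had a median of 1352 CPM (1111 to 1517) with carmofur, against 789, 781 and 869 CPM in the controls (0.70, adjusted p = 0.00203). S100a11 had a median of 1109 CPM (935 to 1431) with carmofur, against 582, 636 and 674 CPM in the controls (0.88, adjusted p = 0.00259). In each gene all carmofur libraries were above all controls, and in 13 of the 21 members this held, against 6.39% of all tested genes. The count fell to 6 without control library 4, control library 5 or carmofur library 12, and to 2 without carmofur libraries 10 to 12. Crypt-base stem cell genes had none of 20 called by edgeR, 3 by DESeq2, 2 by limma-voom and 4 at an unadjusted p under 0.05, with a median of -0.34. Lgr5, their defining receptor, had a median of 4.1 CPM (0.438 to 7.86) with carmofur, against 2.15, 20.2 and 11.3 CPM in the controls (-1.47, adjusted p = 0.675), and Ascl2, its transcription factor partner, a median of 9.09 CPM (0.265 to 32.6) with carmofur, against 42, 7.23 and 9.62 CPM in the controls (-0.74, adjusted p = 0.867). The groups overlapped in both genes.

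**Figure D4:**
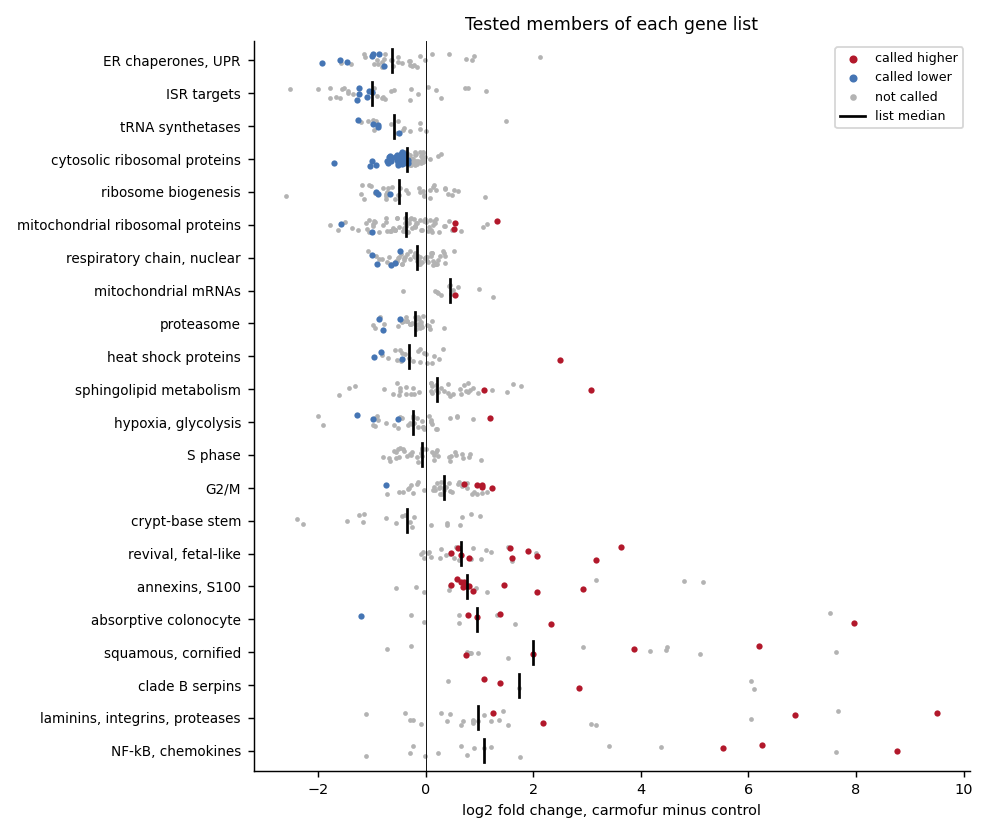
Log2 fold change, carmofur minus control, of every tested member of 22 gene lists; red points were called higher, blue points lower, grey points were not called, and the black bar is the list's median. The ER, integrated stress response, tRNA synthetase and ribosomal protein lists hold no gene called higher. The revival, annexin and S100, squamous, serpin, protease and chemokine lists hold no gene called lower. Of all tested genes 3.26% were called higher and 1.49% lower, so a short list can lack such calls without any effect. Some squamous, protease and chemokine genes had almost no counts in the controls and could hardly be called lower.

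Absorptive colonocyte genes rose in 5 of 13 tested members of 30 listed (Car2, Krt20, Car1, Cdhr2 and Ceacam1), and Rnf186 fell. The rises are 38.5% of those tested and the fall 7.69%, against 3.26% and 1.49% of all tested genes. The median of 0.95 includes members near 0 in the controls, such as Krt20, which could enter the test through carmofur libraries alone. Car2, a carbonic anhydrase of surface colonocytes, had a median of 5799 CPM (5353 to 6297) with carmofur, against 2932, 3281 and 3985 CPM in the controls (log2 fold change 0.78 ± 0.10 (SE), adjusted p = 0.000254). Car1, of the same family, had a median of 517 CPM (340.3 to 629) with carmofur, against 167, 188 and 227 CPM in the controls (1.39, adjusted p = 0.000404). The groups were separate in both genes. Car1 was not called against all 12 controls of the carmofur experiment (adjusted p = 0.666). Rnf186, a ubiquitin ligase of the colon epithelium, had a median of 225 CPM (192 to 276) with carmofur, against 597, 759 and 261 CPM in the controls (-1.21, adjusted p = 0.00462), with carmofur library 8 above the lowest control, and was not called without control library 5 (adjusted p = 0.0663). Cdhr2 and Ceacam1, named after their values were seen, both lost their calls without control library 4 (adjusted p = 0.0716 and 0.126). The whole list of 30 summed to 7263 to 9139 CPM with carmofur and 4716 to 5464 CPM in controls.

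Squamous and cornified envelope genes rose in 4 of 17 tested members of 36 listed (23.5%, against 3.26% of all tested genes), and none fell. The median of 1.99 includes members near 0 in the controls, such as Krt13, which could enter the test through carmofur libraries alone. Krt13, a keratin of stratified mucosa, had 15.6, 41.9 and 45.5 CPM in carmofur libraries 7 to 9, 109, 53.8 and 57.6 CPM in carmofur libraries 10 to 12, and 0.538, 1.5 and 0.214 CPM in control libraries 4 to 6 (log2 fold change 6.20 ± 0.80 (SE), adjusted p = 0.000273). Krt4, its pairing partner, had a median of 254 CPM (102 to 406) with carmofur, against 47.9, 56 and 88.1 CPM in the controls (1.99, adjusted p = 0.00343). No library overlapped between groups in either. Sprr2a2, a cornified envelope precursor, rose (0.74, adjusted p = 0.00508) and was not called without control library 4 (adjusted p = 0.0534); it belongs to a family of near-identical genes and is uncertain. Krt14, of basal cells, rose with a median of 23.8 CPM (6.4 to 67.4) with carmofur, against 3.77, 1.2 and 0.641 CPM in the controls (3.87, adjusted p = 0.0356), and its call was lost without carmofur library 10, 11 or 12 or control library 4, 5 or 6 (adjusted p from 0.0517 to 0.148). The whole list of 36 summed to 1519 to 2262 CPM with carmofur and 858 to 1040 CPM in controls. Among 7 tested clade B serpins, intracellular protease inhibitors of squamous epithelium, 3 rose (Serpinb11, Serpinb5 and Serpinb1a). The 3 are 42.9%, against 3.26% of all tested genes. Serpinb11 had a median of 159 CPM (75 to 295) with carmofur, against 37.7, 7.23 and 25.9 CPM in the controls (2.84, adjusted p = 0.00205). Without control library 4 or control library 5 it was the 1 call left of the 3. Of 10 tested goblet cell genes Muc13, a transmembrane mucin, rose (2.17, adjusted p = 0.00353).

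Cell cycle genes were called mainly among those of mitosis. Of 41 G2 and mitosis genes 5 rose (Ccnb1, Nusap1, Kif20a, Prc1 and Ccnb2), Hmgb2 fell, and the median was 0.34. The rises are 12.2% and the fall 2.44%, against 3.26% and 1.49% of all tested genes. Ccnb2 was not called without carmofur library 8, 9, 11 or 12 or control library 5 or 6, and Prc1 not without control library 4. Ccnb1, the cyclin that drives entry into mitosis, had a median of 1088 CPM (923 to 1442) with carmofur, against 519, 565 and 682 CPM in the controls (log2 fold change 0.95 ± 0.15 (SE), adjusted p = 0.000976). Nusap1, of the mitotic spindle, had a median of 559.7 CPM (429 to 646) with carmofur, against 219, 223 and 349 CPM in the controls (1.05, adjusted p = 0.0021). Hmgb2, a chromatin protein, had a median of 739 CPM (621 to 824) with carmofur, against 1165, 1490 and 981 CPM in the controls (-0.74, adjusted p = 0.00301). The groups did not overlap in any of the 3. Among 39 S phase genes none was called by edgeR, 1 by DESeq2 and none by limma-voom, with 5 at an unadjusted p under 0.05 and a median of -0.08. Mki67, the proliferation marker, had a median of 138 CPM (115 to 173) with carmofur, against 139.6, 126 and 162 CPM in the controls (-0.04, adjusted p = 0.973).

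Enzymes around the fluoropyrimidine target gave 2 calls of 24 tested, both higher (8.33%, against 3.26% of all tested genes). Tyms, thymidylate synthase itself, had a median of 381 CPM (305 to 437) with carmofur, against 533, 431 and 546 CPM in the controls; all carmofur libraries but library 11 lay below the lowest control, and the change did not pass by edgeR (-0.41, adjusted p = 0.136) but did with DESeq2 (adjusted p = 0.0491) and in edgeR's fit of 27 libraries (0.017). Rrm2, the small subunit of ribonucleotide reductase, had a median of 662 CPM (420.4 to 779) with carmofur, against 264, 549 and 237 CPM in the controls (0.86, adjusted p = 0.048), with control library 5 inside the carmofur range, and was not called without carmofur library 7, 9, 10, 11 or 12 or control library 4 or 6 (adjusted p from 0.0683 to 0.252). Samhd1, which degrades deoxynucleotides, was the other call (1.36, adjusted p = 0.0019); it holds the repeat word described below. The salvage enzymes Upp1, Umps and Tk1, fixed by name, did not pass (adjusted p = 0.949, 0.671 and 0.863). Of 26 tested targets of p53 1 was called by edgeR, Pmaip1, the apoptosis inducer Noxa (0.81, adjusted p = 0.0454), and not without carmofur library 8, 9, 10, 11 or 12 or control library 4, 5 or 6 (adjusted p from 0.0508 to 0.207). The 1 edgeR call is 3.85% of the list, near the 3.26% called higher over all tested genes. DESeq2 called 3 of the list and limma-voom 1. Btg2, an antiproliferative target, and Polk, a DNA polymerase of damage bypass, passed with DESeq2 (adjusted p = 0.0112 and 0.00352) but not in edgeR's main fit (0.0525 and 0.09). Both passed in some edgeR alternatives, among them Btg2 against all 12 controls of the carmofur experiment (0.0116) and Polk in the fit of 27 libraries (0.0463).

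Sphingolipid genes, which surround the enzyme that carmofur inhibits, were mostly not called. Of 52 listed 44 were tested, and Sgms2 and Psap rose (4.55%, near the 3.26% over all tested genes). None fell, and the median was 0.21. Asah1, acid ceramidase (ENSMUSG00000031591, mm10 chromosome 8, 41340197 to 41374773), had a median of 510.5 CPM (384 to 539) with carmofur, against 372, 385 and 512 CPM in the controls, and the groups overlapped (log2 fold change 0.19 ± 0.16 (SE), adjusted p = 0.705). The neutral and alkaline ceramidases did not pass either, with log2 fold changes of -1.32, adjusted p = 0.879 for Asah2, 0.22, adjusted p = 0.982 for Acer1, -0.60, adjusted p = 0.788 for Acer2 and 0.10, adjusted p = 0.963 for Acer3. Nor did the amidases Faah (-0.09, adjusted p = 0.989) and Naaa (0.36, adjusted p = 0.961). Sgms2, which makes sphingomyelin from ceramide at the plasma membrane, had a median of 44.2 CPM (9.28 to 59.4) with carmofur, against 7, 6.62 and 1.5 CPM in the controls (log2 fold change 3.06 ± 0.68 (SE), adjusted p = 0.0141); all carmofur libraries lay above all controls, and the call was lost without control library 6 (adjusted p = 0.0511). Psap, the precursor of the saposins that present sphingolipids to lysosomal enzymes, rose (1.07, adjusted p = 0.046), a call lost without carmofur library 7, 8, 9, 10 or 11 or control library 4, 5 or 6 (adjusted p from 0.0572 to 0.207). In cholesterol synthesis 2 of 25 genes rose (Srebf2, which holds the repeat word, and Sc5d). In fatty acid synthesis 1 of 14 rose (Me1). Sc5d was not called without control library 4 (adjusted p = 0.102) or control library 5 (adjusted p = 0.0648), and Me1 not without control library 4 (adjusted p = 0.0787) or control library 5 (adjusted p = 0.079).

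Lysosomal genes had 3 rises (7.89%) and 2 falls (5.26%) among 38 tested, with a median of 0.46. Over all tested genes the shares were 3.26% and 1.49%. Of these 1 call was left without control library 4 or control library 5. Lamp2, a protein of the lysosomal membrane, had a median of 714 CPM (606 to 1019) with carmofur, against 446, 488 and 544 CPM in the controls (0.65, adjusted p = 0.0417), and was not called without carmofur library 7, 8, 9 or 11 or control library 4, 5 or 6 (adjusted p from 0.0639 to 0.202). Gusb, beta-glucuronidase, had a median of 17.9 CPM (8.64 to 28.9) with carmofur, against 59.7, 87.6 and 55 CPM in the controls, with no overlap (-1.82, adjusted p = 0.0171), and was not called without control library 4 (adjusted p = 0.0599) or control library 5 (adjusted p = 0.151). Ctsl, cathepsin L, had a median of 1580 CPM (1040 to 1974) with carmofur, against 563, 567 and 567 CPM in the controls (1.43, adjusted p = 0.000291), and it holds the repeat word. Of 38 tested NRF2 targets 4 rose (Gstm2, Ephx1, Gsta1 and Me1) and Gpx2 fell. Gstm2, a glutathione transferase, had a median of 151 CPM (126 to 215) with carmofur, against 38.5, 31.6 and 70.1 CPM in the controls (1.73, adjusted p = 0.00207), and Gpx2, the gut glutathione peroxidase, had a median of 948 CPM (833 to 1179) with carmofur, against 1635, 1343 and 1774 CPM in the controls (-0.71, adjusted p = 0.00276), both without overlap. Glutathione transferases are close paralogues, and reads may be split among them.

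Several chemokines and matrix genes rose. Cxcl1, Cxcl2 and Ccl20 were called among 17 tested genes of NF-kB and chemokines, and Mmp13, Itgav, Plat and Mmp10 among 27 laminins, integrins and proteases. These are 17.6% and 14.8%, against 3.26% called higher of all tested genes. Mmp13, collagenase 3, had 7.23, 0.64 and 4.38 CPM in carmofur libraries 7 to 9, 74.9, 63.6 and 45.7 CPM in carmofur libraries 10 to 12, and 0.269, 0.301 and 0.214 CPM in control libraries 4 to 6, with 3 counts in all in the controls (pooled ratio 145, 95% counting interval 49.4 to 702). It was called over the 9 libraries (6.87, adjusted p = 0.0118) and not without control library 4 (adjusted p = 0.0637), control library 5 (adjusted p = 0.0564) or control library 6 (adjusted p = 0.0531). No chemokine call was left without control library 4, control library 5, carmofur library 11 or carmofur library 12. No protease call was left without control library 5. Class I antigen presentation gave B2m, its light chain, at a median of 211 CPM (89.6 to 290.3) with carmofur, against 31.8, 85.2 and 65.7 CPM in the controls (1.70, adjusted p = 0.0114), and H2-T23, which holds the repeat word, among 28 tested; B2m was not called without control library 4 (adjusted p = 0.0742). Of 24 BCL2 family and caspase genes 3 rose (Cflar, Pmaip1 and Bcl2l11). Cflar was called whichever library was left out. Bcl2l11 was not called without carmofur library 7, 8, 9, 10, 11 or 12 or control library 4 or 6 (adjusted p from 0.0509 to 0.179), nor by limma-voom, and lost its call in 17 of 22 alternatives. Of 38 hypoxia and glycolysis genes Ero1a, Ndrg1 and Tpi1 fell and Slc2a3 rose. Of 19 immediate early genes Klf2 was called, of 20 MAPK feedback genes none by edgeR (2 by DESeq2, none by limma-voom, 4 at an unadjusted p under 0.05), and of 8 metallothionein and zinc genes Mt2 fell (-0.92, adjusted p = 0.0426), a call lost without carmofur library 9, 10, 11 or 12 or control library 5 or 6 (adjusted p from 0.0665 to 0.307).

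A short sequence was common among the genes that rose, found after the calls were seen. It was picked as the word held by the most genes called higher, so its share among them was raised by that choice. It is a 24-base word, printed as it stands in the transcript of Mrps26 on chromosome 2, and its letters belong to the B2 family of mouse repeats, short interspersed elements present in many transcripts.
Shared word: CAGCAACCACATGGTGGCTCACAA
Of 350 genes called higher with a transcript in GENCODE M21, 89 hold it (25.4%), against 3 of 161 called lower (1.86%) and 420 of 10760 tested (3.9%). Its reverse complement, not picked in this way, stood in 3.14% of the genes called higher and 2.79% of those tested. The 89 genes summed to 24040 to 30390 CPM in carmofur libraries 7 to 9 and 39090 to 44680 CPM in carmofur libraries 10 to 12. In controls they summed to 14300 to 15300 CPM. They were called higher in these same libraries, so a sum above the controls follows from the choice. The 420 tested genes with the word, the 89 among them, summed to 43790 to 49890, 60070 to 66030 and 31120 to 33880 CPM in these groups. All 420 tested genes with the word, called or not, had a median log2 fold change of 0.85, against 0.06 over all tested genes. Of the 420, 336 lay above 0, against 5722 of 10781 tested genes. Of the genes named here Pck2, Psma2, Mrps26, Prc1, Cflar, Slc2a3, Atp6v1h, Ctsl, Samhd1, Srebf2, H2-T23, Cpox, Ccz1 and Irak1 hold the word. Reads from such a repeat may be shared among the genes that hold it, so each of them is uncertain. When they were left out of the fit, 386 genes were called. The part of this word, of ribosomal RNA (Rn18s-rs5 at 227 to 1603 CPM with carmofur and 189 to 220 CPM in controls) and of mitochondrial transcripts in the results was not tested.

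Carmofur libraries 7 to 9 were then set against 10 to 12. Against the same 3 controls, 235 genes were called in libraries 7 to 9 (2.18%), 176 higher (1.63%) and 59 lower (0.547%), and 586 in libraries 10 to 12 (5.44%), 414 higher (3.84%) and 172 lower (1.6%); these counts share their controls. The direct test between the sets called 20 genes (0.186%), 2 higher (0.0186%) and 18 lower (0.167%) in libraries 7 to 9 than in 10 to 12, with 805 at an unadjusted p under 0.05. Edn1, the vasoconstrictor peptide endothelin 1, had 0, 0 and 0.137 CPM in carmofur libraries 7 to 9, 18.5, 34.4 and 53.2 CPM in carmofur libraries 10 to 12, and 0.538, 0 and 0.428 CPM in control libraries 4 to 6. Libraries 7 to 9 held 1 count and libraries 10 to 12 held 862, a pooled ratio of 0.00173 (95% counting interval 4.4e-05 to 0.00964), with an adjusted p of 0.0321. Spp1 and Rn18s-rs5 were lower in libraries 7 to 9 than in 10 to 12, by log2 differences of -1.10 (adjusted p = 0.0232) and -1.68 (adjusted p = 0.0259). Cpox, Ccz1 and Irak1 were lower too (log2 differences -0.83, -0.78 and -0.76), and all 3 hold the repeat word, as do 9 of the 17 genes called lower in libraries 7 to 9 with a transcript (52.9%). Rpl22l1 (1.08) and the heterochromatin protein gene Cbx3 (0.82) were higher. No gene differed between the sets by edgeR without carmofur library 11 or carmofur library 12, 1 to 7 without carmofur library 7, 8, 9 or 10, and 33 without control library 6. Against the controls, libraries 7 to 9 gave 122 to 149 calls without control library 4 or 5 or any 1 of their own 3, and libraries 10 to 12 gave 352 without carmofur library 11.

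The same contrast was available in 18 other libraries of the carmofur experiment, with other library numbers and other controls (9 carmofur and 9 control). There 1004 of 12375 genes were called (8.11%), 550 higher (4.44%) and 454 lower (3.67%). Of the 512 genes called here 511 were tested there. Of these 438 had the same sign, 259 were called in the same direction and 13 in the opposite direction. The share of the same sign over all tested genes was not counted, so the 438 are not read as agreement. The shared 259 are 50.7% of the genes called here and 27.6% of those called there and tested here. Asns fell there too (-1.57, adjusted p = 1.19e-08), and the difference between its effects, 0.27, did not pass (adjusted p = 0.774). Hspa5 also fell (-1.11, adjusted p = 1.35e-06), with a difference of -0.53 that did not pass (adjusted p = 0.275). Ero1a fell further there (-1.98, adjusted p = 3.22e-08), by a difference of 0.95 that passed (adjusted p = 0.0412). Among listed groups, the integrated stress response list had 14 falls and no rise there, the ribosomal proteins 36 falls and no rise, and the revival list 10 rises and no fall. Other lists differed in sign. Ribosome biogenesis genes, with 3 falls, no rise and a median of -0.50 here, had 5 rises, no fall and a median of 0.195 there, and the difference was called for 4 of them, all more negative here. The 13 mRNAs of the mitochondrial genome, with 1 rise and no fall here, had 2 rises, 3 falls and a median of -0.19 there, and the difference was called for 5, all more positive here.

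**Figure D5:**
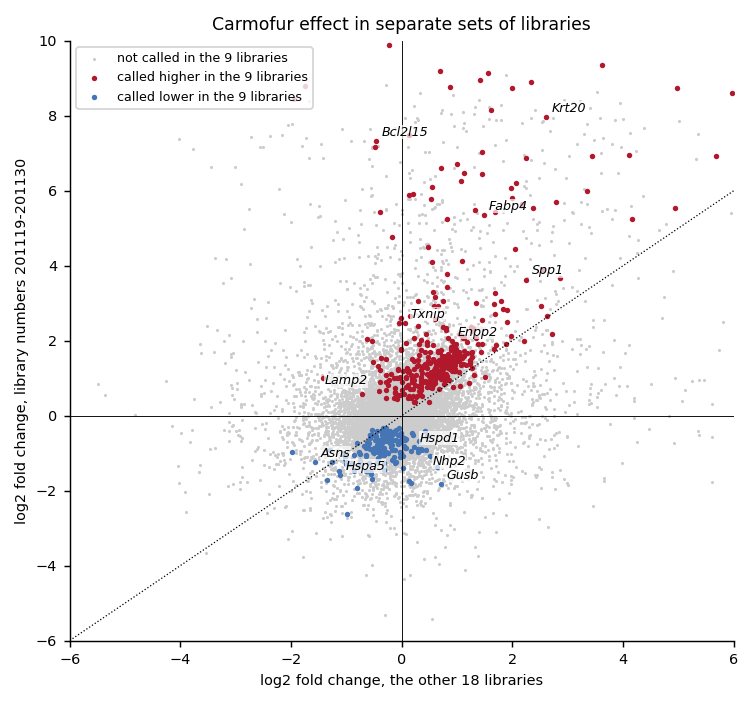
Log2 fold change, carmofur minus control, in the 9 libraries numbered 201119 to 201130 (vertical) against the same contrast in the other 18 libraries (horizontal), for genes tested in both; red and blue points were called higher and lower in the 9 libraries, the dotted line marks equal effects, and 13 genes lie outside the axes. Asns and Hspa5 lie below 0 on both axes, while Hspd1, Nhp2 and Gusb lie below 0 in these 9 libraries and above 0 in the others.

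The test of the difference between the effects called 197 of 13123 genes (1.5%), 98 more positive (0.747%) and 99 more negative (0.754%) in these 9 libraries. Hspd1 and Hspe1 fell here and had positive values there (0.23 and 0.29), with differences of -1.12 (adjusted p = 1.75e-05) and -1.31 (adjusted p = 0.000272). Tyms, not called here by edgeR, rose there (0.41, adjusted p = 0.00208), with a difference of -0.88 (adjusted p = 0.000467). Gusb, Tbcb, Rangrf, Pfdn6, Prpf31 and Trmt6 had the most negative differences under the naming rule, between -1.76 and -2.59. Crim1, Bcl2l15, Krt20, Cpm, Upk3bl and Fabp4 had the most positive, between 3.81 and 8.60. Krt20 was called in both sets of libraries (2.60 there, adjusted p = 0.000819) and differed by 5.34 (adjusted p = 0.0156). That difference was not called without control library 4 (adjusted p = 0.0936) or control library 6 (adjusted p = 0.0779). Txnip differed by 2.36 (adjusted p = 0.00428), with a log2 fold change of 0.05 in the other libraries. Of the S phase genes 13 rose in the other libraries and none here, and the difference was called for 6 of the list, all more negative here. The number of called differences was 94 without control library 4 and 113 without control library 5, in place of 197. What else differs between the groups of library numbers cannot be told apart from the treatment effect.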

How the data were processed

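RNA was extracted with TRIzol and a column kit, selected for poly(A) and made into strand-specific libraries with a directional kit, per the labels' protocols. Genes were quantified with Salmon 1.3.0 on mm10, per the submitters' processing notes; its settings were not stated. The authors deposited estimated counts per gene as whole numbers, for 54354 genes. The 1243 genes without a name held 0.0216% of the counts.

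Only the 9 libraries entered the fit. Genes were filtered with filterByExpr, scaled with TMM and tested with edgeR 4.0.16 (quasi-likelihood F test, robust) in R 4.3.3, with Benjamini-Hochberg adjustment over all tested genes and a threshold of 0.05. The filter asks for enough counts in as many libraries as the smaller group holds, so genes near 0 in 1 group could enter. CPM were computed from the deposited counts with the TMM library sizes; errors on fold changes are standard errors. The 18 other libraries of the carmofur experiment were fitted on their own, and the difference of effects in 1 fit of 27 libraries with a term for each group of library numbers. These groups are ranges of library numbers, not stated batches. Coordinates come from GENCODE M21 (GRCm38/mm10) and promoters from RefSeq (GRCm38.p6). Salmon divides reads among similar transcripts, which affects genes with copies or shared repeats. The test was checked on simulated counts.

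The libraries compared, the gene lists and the tests were chosen with earlier results of these data known. Named genes were the 12 largest rises and falls among called genes with at least 5 CPM on average and at least 5 of 6 carmofur libraries beyond every control, the 4 members of lowest p in each list, genes fixed by name, and the 6 largest differences each way between sets and between groups of libraries; others are said to have been chosen after their values were seen. A gene that these rules name, and its list, are not reported here. None of the 18 pairs of libraries within a group agreed within sampling noise (chi-square per degree of freedom at least 31.1), so none was treated as a library deposited more than once; this does not show separate cultures. Alternatives were other scalings and filters, DESeq2 1.42.0, limma 3.58.1 (voom with quality weights), and leaving out libraries.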

Additional observations from a re-analysis of the deposited data

Results flagged for a closer look

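A gene's carmofur library was marked when its gap to the nearest of the 6, divided by their range, exceeded Dixon's 95% critical value. This happened in 5 of 152 values examined, and chance marks about 1 in 20 groups. Klf2 was highest in carmofur library 10 at 33.3 CPM, Apoc2 highest in library 11 at 714 CPM, and Xkr8 highest in library 12 at 0.122 CPM, a single count. Anxa5 was at 575 CPM in carmofur library 9 and Cycs at 336 CPM in library 10, each far below the other 5.

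Genes also stood out where the carmofur sets differed by the direct test. Libraries 7 to 9 were lower than 10 to 12 for Edn1 (log2 difference -8.73, adjusted p = 0.0321), Rn18s-rs5 (-1.68, 0.0259), Spp1 (-1.10, 0.0232), Cpox (-0.83, 0.0483), Ccz1 (-0.78, 0.0272) and Irak1 (-0.76, 0.028). They were higher for Cbx3 (0.82, 0.0272) and Rpl22l1 (1.08, 0.0466). None of these 8 differences passed under every alternative.

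Among genes with a mean of at least 5 CPM over the 9 libraries, effects that differed between these and the other 18 were most negative here for Gusb (difference -2.59, adjusted p = 0.0047), Tbcb (-2.15, 0.0308), Rangrf (-2.06, 0.000173), Pfdn6 (-2.01, 0.0285), Prpf31 (-1.80, 0.0285) and Trmt6 (-1.76, 0.00953). They were most positive for Crim1 (8.60, 0.0168), Bcl2l15 (7.76, 0.0348), Krt20 (5.34, 0.0156), Cpm (4.78, 0.0465), Upk3bl (4.39, 0.00342) and Fabp4 (3.81, 0.0132). Of these 12 differences 3 passed without each library. Crim1 and Bcl2l15 held 0 and 2 counts in the 3 controls here, and Krt20 was near 0 too. The fitted differences of these genes depend on the prior count.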

How the results depend on the processing

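No paired analysis was possible because the control and carmofur libraries share no replicate numbers, so there was nothing to pair. Of 512 genes called with carmofur, the count was 946 with DESeq2, 820 against all 12 controls of the carmofur experiment, 96 without carmofur libraries 10 to 12, and 248 to 535 with 1 library left out; it was 541 with limma-voom (287 higher, 254 lower, against 351 and 161). With the genes that hold the repeat word left out, an alternative chosen after seeing the data, it was 386. Carmofur libraries 7 to 9 against controls (235) gave 367 with no count filter, 630 with DESeq2, 72 without libraries 8 and 10, and 122 to 232 with 1 library left out. Carmofur libraries 10 to 12 against controls (586) gave 992, 390 without libraries 8 and 10, and 352 to 605. The difference between these sets (20) gave 6 with DESeq2's size factor scaling in edgeR, 56 with no filter, 134 with DESeq2, 1 without libraries 8 and 10, and 0 to 33 with 1 library left out. The difference from the other 18 libraries (197) gave 125 with no filter, 403 with DESeq2, 122 without carmofur libraries 8 and 10 and control library 1, 115 against one of the other groups of library numbers alone, and 94 to 233 with 1 library left out. The cause of these shifts was not tested, except that fewer libraries enter when some are left out.

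No named gene called in a comparison changed direction in it under any alternative; of 88 named values not called, 14 changed sign under at least 1 and none was then called. Of 149 named genes called with carmofur, 62 passed whichever library was left out and 34 under every alternative, among them Hspa5, Asns, Ptma, Enpp2, Apoc2, Krt20 and Car2. Of 88 named values not called, 41 passed in at least 1 alternative. At 3127275 to 10609563 counts and 3 controls, a gene at 0 in the controls can only be bounded.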

Other observations

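In both groups of libraries with their own controls, 13 genes were called in opposite directions. Lamp2, of the lysosomal membrane, rose here (0.65) and fell in the other 18 libraries (-0.41, adjusted p = 0.00262), and the difference passed (1.01, adjusted p = 0.0021). Alox12b, an epidermal lipoxygenase, rose here (1.0, adjusted p = 0.0124) and fell there (-1.42, adjusted p = 2.98e-05). Nme1, a nucleoside diphosphate kinase, fell here (-0.55, adjusted p = 0.0149) and rose there (0.46, adjusted p = 0.000409). Hmgn2, a nucleosome-binding protein, fell here (-0.93, adjusted p = 0.0211) and rose there (0.44, adjusted p = 0.000433). Xkr8, a phospholipid scramblase, held 0 counts in carmofur libraries 7 to 11 and 1 in library 12, against 5.11, 8.43 and 9.19 CPM in the controls. The pooled ratio of carmofur to control was 0.00349 (95% counting interval 8.74e-05 to 0.0199). It was called lower here (adjusted p = 0.0131) and higher there (adjusted p = 0.0215), and the call here was lost without control library 5 (adjusted p = 0.0628) or control library 6 (adjusted p = 0.0501). The others were Rangrf, Siva1 and Gm20390, lower here, and Vmp1, Tmem45b, mt-Rnr2, Dapl1 and Calml4, higher here. These genes were chosen after their values were seen, and all tests are edgeR's quasi-likelihood tests.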
